A study of Mus musculus with 8 samples.

Results

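The 34 genes described here carry out glycolysis or belong to the transcriptional response to low oxygen. They were taken by symbol from the deposited gene lists, and each of the 34 was present in all 4 gene expression matrices, among 30374 genes that those matrices share. Counts of these genes were read in CD8 T barcodes, which are droplets with at least 1 UMI (unique molecular identifier, a counted RNA molecule) of Cd8a or Cd8b1 and at least 1 of Cd3d, Cd3e or Cd3g. Of the 34 genes, 33 had a mean of at least 5 CPM (the gene's share of a library's UMIs, scaled to 1000000) over the libraries and entered the tests, as did 8872 genes in all.

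Tumour-infiltrating CD8 T cells came from wild-type C57BL/6 mice with palpable tumours of MC38, a line of mouse colon carcinoma cells. In experiment 1, mice received buffer or 10 mg/kg of rhIL-7-hyFc subcutaneously, and tumours were taken 7 days later. This agent joins recombinant human IL-7 to a hybrid Fc, which prolongs its action, and IL-7 itself is a survival and growth cytokine of T cells. CD8 T cells of experiment 1 were enriched by magnetic positive selection. In experiment 2, mice received 1.25 mg/kg of rhIL-7-hyFc alone or together with TCE, a bispecific T cell engager against PD-L1 of the mouse and CD3ε that was begun intravenously 3 days after rhIL-7-hyFc, and tumours were taken 24 hours after the last treatment. CD8 T cells of experiment 2 were sorted as live CD45+ TCRb+ CD8a+ cells. Both groups of experiment 2 thus carry rhIL-7-hyFc, and no untreated group of experiment 2 is among the samples. Each of the 4 groups was 1 library of 5′ gene expression with paired T cell receptor sequences. The sources used here do not say how many mice went into a library. Values for 4 libraries are given throughout in the order buffer, rhIL-7-hyFc at 10 mg/kg, rhIL-7-hyFc at 1.25 mg/kg, and the combination of rhIL-7-hyFc and TCE. Ak4, a mitochondrial adenylate kinase, was the member below 5 CPM, with 2.07, 0.540, 2.06 and 0.604 CPM.

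After filtering there were 3975, 5622, 10888 and 10933 CD8 T barcodes, with 41144471, 61120884, 109627615 and 91111930 UMIs in all and medians of 8456, 9726, 7138.5 and 6700 UMIs per barcode. The 7 T cell markers (Cd3d, Cd3e, Cd3g, Trac, Trbc2, Cd8a and Cd8b1) were all detected in each library and summed to 5551 to 6899.5 CPM. RNA of macrophages was also present: 10 macrophage markers summed to 1119, 272, 3356 and 836 CPM, with none at 0, and 7 dendritic cell markers to 715, 137, 1223 and 327 CPM. The 4 neutrophil markers summed to 12.3, 3.89, 67.4 and 20.8 CPM. Summed markers of CD4 T cells, tumour cells, B cells, NK cells and fibroblasts were each at 13.3 CPM or lower. In 31.0% of the CD8 T barcodes of the 1.25 mg/kg library at least 10 macrophage UMIs were found, against 6.14%, 1.37% and 6.43% in the buffer, 10 mg/kg and combination libraries. Results are therefore given both for all CD8 T barcodes and for macrophage-low barcodes, those with under 3 macrophage UMIs, which number 3173, 5428, 7082 and 10136 and hold 81.2, 22.3, 43.8 and 17.5 CPM of macrophage markers. Dendritic cell markers still summed to 425, 18.6, 222 and 100.5 CPM there, and neutrophil markers to 0.494, 0.172, 25.8 and 1.77 CPM. Between 31 and 165 barcode sequences were shared by a pair of libraries, at most 1.86% of the smaller one.

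Glycolysis breaks glucose down to pyruvate in the cytosol. Activated T cells raise it to supply energy and building blocks, and export much of the pyruvate as lactate. When oxygen falls, prolyl hydroxylases of the EGLN family stop marking HIF-1α for degradation, and the stabilised protein binds DNA with its partner ARNT and switches on a shared set of genes that includes most glycolytic enzymes. T cell receptor and cytokine signals can also raise HIF-1α in well-oxygenated T cells. PD-1 (Pdcd1) and TIM-3 (Havcr2) are inhibitory receptors that mark antigen-experienced and, when they are carried together, terminally exhausted CD8 T cells in tumours.

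The core of the HIF binding element is RCGTG, so the promoters of the members whose level moved most between Pdcd1 states are shown first, with ACGTG and GCGTG in capitals wherever they lie on either strand (CACGT and CACGC where they lie on the other strand). Each is a RefSeq promoter window on GRCm38.p6, 250 bases before to 50 after the first start the table lists, written 5′ to 3′ along the gene. Bnip3 (a mitophagy receptor; chr7:138909457-138909756, minus strand) and Mxi1 (a repressor that competes with MYC for its partner; chr19:53310256-53310555, plus strand) had the highest fold changes between Pdcd1 states among members in the table. Pdk1 (chr2:71872974-71873273, plus strand) and Slc16a1 (chr3:104638414-104638713, plus strand) had the lowest.
Bnip3: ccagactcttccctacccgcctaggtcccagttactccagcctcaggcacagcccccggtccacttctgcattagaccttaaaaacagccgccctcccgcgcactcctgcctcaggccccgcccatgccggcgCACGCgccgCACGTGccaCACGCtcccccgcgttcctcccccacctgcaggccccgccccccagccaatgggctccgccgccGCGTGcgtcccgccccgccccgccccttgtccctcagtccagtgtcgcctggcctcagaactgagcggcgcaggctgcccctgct
Mxi1: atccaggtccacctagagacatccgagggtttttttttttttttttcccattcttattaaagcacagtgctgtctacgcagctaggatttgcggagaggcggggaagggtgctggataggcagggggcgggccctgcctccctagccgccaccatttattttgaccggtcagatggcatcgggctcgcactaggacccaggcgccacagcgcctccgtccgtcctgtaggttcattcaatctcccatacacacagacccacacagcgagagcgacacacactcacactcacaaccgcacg
Pdk1: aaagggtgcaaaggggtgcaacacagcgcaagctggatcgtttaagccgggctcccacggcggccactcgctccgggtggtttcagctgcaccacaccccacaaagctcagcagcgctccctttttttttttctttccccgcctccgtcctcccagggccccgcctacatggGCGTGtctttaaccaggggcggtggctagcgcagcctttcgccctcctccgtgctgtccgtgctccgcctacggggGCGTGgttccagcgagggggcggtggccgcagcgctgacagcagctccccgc
Slc16a1: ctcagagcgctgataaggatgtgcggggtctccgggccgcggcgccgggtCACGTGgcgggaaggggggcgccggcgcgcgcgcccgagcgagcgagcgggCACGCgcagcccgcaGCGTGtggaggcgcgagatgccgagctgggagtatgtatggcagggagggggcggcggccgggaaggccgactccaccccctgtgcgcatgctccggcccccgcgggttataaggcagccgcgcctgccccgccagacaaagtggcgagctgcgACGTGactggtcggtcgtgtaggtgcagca
Bnip3 held 2 ACGTG and 3 GCGTG matches, Slc16a1 held 3 and 2, Pdk1 held 2 GCGTG matches, and Mxi1 held no match in this window. Where CACGTG occurs it holds ACGTG on both strands and counts as a match on each. A promoter was found for 30 of the 34 members, and the table has none for Slc2a3, Ndrg1, Bnip3l and Ero1l. Of the 30, 23 (76.7%) held ACGTG or GCGTG on either strand, against 43.8% of all 32851 promoters in the table. Enzymes of glycolysis held a match in 8 of 13 promoters and hypoxia targets in 8 of 10. A match describes the letters in the window, and members on both sides of the Pdcd1 comparison held one.

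Glycolytic enzymes were far more abundant than the hypoxia targets. Summed over the 13 enzymes, 10165, 5675, 8120 and 7154 CPM were counted, and over the 13 hypoxia targets 941, 519, 1165 and 860 CPM. These are levels in CPM from 5′ libraries, which count 1 end of each RNA and so are not set by gene length. Ldha (lactate dehydrogenase A, which turns pyruvate into lactate) had 1920, 1198, 1508 and 1468 CPM, and Aldoa (aldolase A) 1888, 980, 1656 and 1282 CPM. At the other end of the pathway, Hk2, the inducible hexokinase that traps glucose in the cell, had 10.4, 4.86, 14.3 and 6.78 CPM, and the widely expressed Hk1 79.4, 61.0, 56.3 and 56.4 CPM. The glucose transporter genes Slc2a1 and Slc2a3 had 101, 60.0, 67.9 and 36.4 CPM and 66.8, 19.5, 31.0 and 36.2 CPM. Within each experiment Slc2a1 was lower in the second library of the pair, and Slc2a3 was so in experiment 1. Vegfa, the vascular growth factor, had 7.49, 1.70, 58.6 and 11.4 CPM. Levels are not compared between experiments, which differed in isolation method and software version. Egln1, with 15.1 and 10.9 CPM in experiment 1 and 93.9 and 98.3 CPM in experiment 2, showed such a gap.

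**Figure D1:**
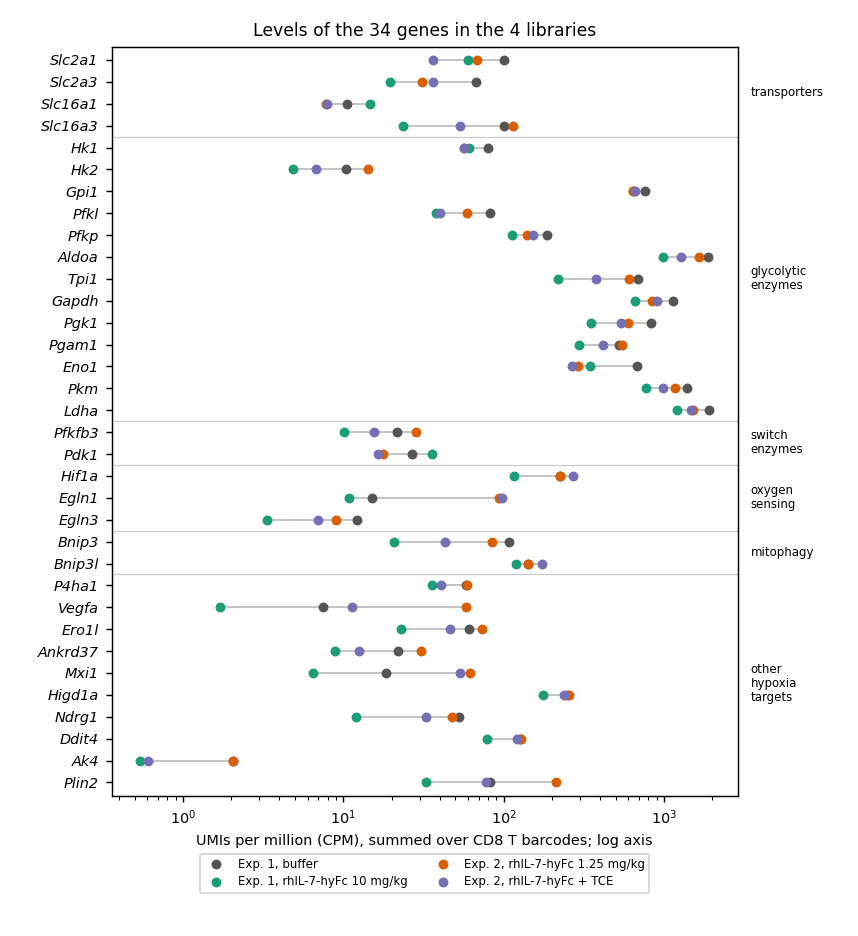
CPM of each of the 34 members over all CD8 T barcodes, on a log axis, with 1 point for each of the 4 libraries and members grouped by role. Ldha reached 1920 CPM in the buffer library, whereas Ak4 was at 2.07 CPM there.

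RNA of macrophages carries several of these genes. In barcodes without any Cd3 or Cd8 UMI and with at least 10 macrophage UMIs (78, 115, 685 and 69 barcodes), Plin2, a lipid droplet coat protein, had 1231, 715, 967 and 1003 CPM, against 81.7, 32.8, 213 and 77.6 CPM in CD8 T barcodes. Vegfa had 135, 38.6, 276 and 197 CPM there, Bnip3 331, 190, 298 and 275 CPM, and Slc16a3, the lactate exporter MCT4, 297, 238, 458 and 344 CPM. Slc2a3, the high-affinity glucose transporter GLUT3, had 3, 2, 0 and 6 UMIs over all macrophage barcodes of a library, or 4.90, 1.26, 0 and 14.2 CPM, where 0 UMIs allow up to 0.775 CPM. Pdk1 had 22.8, 19.6, 15.2 and 7.11 CPM in macrophage barcodes, below its 26.7, 35.7, 17.6 and 16.6 CPM in CD8 T barcodes.

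Cells with at least 1 Pdcd1 UMI were set against cells without one to ask which members go with antigen experience. There were 2669, 979, 6404 and 7012 such cells, and 7.69%, 2.61%, 1.90% and 0% of macrophage barcodes held a Pdcd1 UMI (the last 0 of 69, which allows a share of up to 4.35%), against 67.1%, 17.4%, 58.8% and 64.1% of CD8 T barcodes with median depths of 7907.5, 13484, 5554 and 6196 UMIs against 8456, 9726, 7138.5 and 6700. The test summed each class within a library and fitted all 4 libraries with the library as a block (edgeR quasi-likelihood, Benjamini-Hochberg over 8872 genes), so it asks for a difference shared by the libraries, each of which was under another treatment. In all CD8 T barcodes 15 of the 33 measured members rose in Pdcd1 cells and 1, Pdk1, fell. Over all genes 10.7% were called higher and 12.5% lower. Glycolytic enzymes rose in 9 of 13 with a median log2 fold change of 0.57, hypoxia targets in 2 of 12 with a median of 0.65, and the median of all genes was -0.01. In macrophage-low barcodes 26 members rose and 2 fell (Pdk1 and Slc16a1), against 18.5% higher and 20.8% lower over all genes. There, all 13 enzymes (median 0.71) and 8 of 12 hypoxia targets (median 0.84) rose. In all barcodes, leaving out 1 library gave 24 members higher without the buffer, 5 without the 10 mg/kg, 2 without the 1.25 mg/kg and 9 without the combination library. Shares over all genes are not given for these fits, so a change in power over all genes cannot be told apart here.

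Among the transporters, Slc2a3 showed the widest separation. Its level in Pdcd1 cells was 80.3, 46.1, 37.2 and 43.8 CPM, and in cells without a Pdcd1 UMI it was 20.6, 11.0, 13.3 and 18.0 CPM. In each library the Pdcd1 cells were the higher class. It rose 3.10-fold (log2 1.63 ± 0.15 SE, adjusted p = 0.00575, edgeR). Slc2a1, the main glucose transporter GLUT1, was at 106, 74.4, 73.8 and 37.8 CPM against 81.1, 55.4, 50.7 and 33.1 CPM and rose 1.25-fold (adjusted p = 0.0490, edgeR). Slc16a3 was at 98.2, 62.9, 135 and 65.1 CPM against 110, 11.1, 55.2 and 25.5 CPM, higher in 3 libraries and lower in the buffer library, with a log2 fold change of 1.18 ± 0.41 that missed the threshold (adjusted p = 0.0923, edgeR). Its levels in macrophage-low barcodes were 95.9, 61.0, 83.4 and 55.1 CPM against 67.0, 8.21, 16.8 and 22.9 CPM, higher in every library, and it rose 3.14-fold (adjusted p = 0.0180, edgeR). Slc16a1, the lactate and pyruvate carrier MCT1, went the other way in all 4 libraries, with 10.3, 9.64, 6.70 and 7.39 CPM against 11.8, 16.2, 11.1 and 9.12 CPM. Its log2 fold change was -0.56 (adjusted p = 0.0559) in all barcodes and -0.67 (adjusted p = 0.0142, edgeR) in macrophage-low barcodes.

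Of the enzymes, Tpi1, Pgk1 and Eno1 had the largest fold changes. Tpi1, triosephosphate isomerase, was at 745, 527, 712 and 441 CPM in Pdcd1 cells and 494, 122, 285 and 230 CPM in the others, and rose 2.26-fold (adjusted p = 0.0276, edgeR). Pgk1, phosphoglycerate kinase and the first ATP-producing step, was at 920, 698, 699 and 604 CPM against 508, 240, 297 and 378 CPM, and rose 2.02-fold (adjusted p = 0.0134, edgeR). For both, the Pdcd1 cells were the higher class in each library. Eno1 (enolase) rose 1.87-fold, from 450, 244, 159 and 195 CPM to 749, 655, 337 and 296 CPM. Gapdh rose 1.64-fold, from 831, 521, 505 and 697 CPM to 1225, 1108, 959 and 998 CPM (adjusted p = 0.0161, edgeR). Aldoa, Pkm (pyruvate kinase), Pgam1 (phosphoglycerate mutase), Ldha and Pfkl (liver-type phosphofructokinase) rose by log2 fold changes of 0.87, 0.57, 0.48, 0.51 and 0.55. Ldha had a fold change of 1.43, at 2103, 1741, 1651 and 1534 CPM against 1290, 1025, 1092 and 1308 CPM. Hk1, Hk2, Gpi1 (glucose-6-phosphate isomerase) and Pfkp (platelet-type phosphofructokinase) had positive values of 0.38, 0.69, 0.32 and 0.43 that missed the threshold in all barcodes and passed it in macrophage-low barcodes. Hk2 was at 9.88, 8.28, 16.1 and 8.23 CPM in Pdcd1 cells and 12.3, 3.77, 8.89 and 3.31 CPM in the others, the buffer library again lying on the other side from the rest.

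Pdk1, pyruvate dehydrogenase kinase 1, inhibits pyruvate dehydrogenase and so limits the oxidation of pyruvate in mitochondria, and is itself a classical HIF-1 target. It was lower in Pdcd1 cells of every library, at 25.3, 21.3, 15.5 and 14.6 CPM against 31.2, 40.2, 23.9 and 21.2 CPM, and fell by 0.66 on the log2 scale (SE 0.14, adjusted p = 0.0318, edgeR). Pdk1 and Slc16a1 were the only measured members lower in Pdcd1 cells in 4 of 4 libraries, whereas 24 were higher in 4 of 4. The same count over all genes was not made. Pfkfb3, which makes the activator of phosphofructokinase, was at 19.3, 12.9, 31.2 and 17.7 CPM against 30.3, 9.23, 19.6 and 10.2 CPM and did not pass the test in either set of barcodes.

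The oxygen-sensing genes were led by Hif1a, the oxygen-regulated subunit of HIF-1. It was at 250, 202, 258 and 314 CPM in Pdcd1 cells and 141, 89.4, 125 and 163 CPM in the others, higher in every library, and rose 1.92-fold (log2 0.94 ± 0.07 SE, adjusted p = 0.00392, edgeR). Among the called members, Hif1a and Slc2a3 were the ones that kept their call under every alternative tried, 12 of 12. Egln1, the main oxygen-dependent prolyl hydroxylase, rose 1.27-fold and was higher in all 4 libraries, from 12.7, 10.2, 67.5 and 82.3 CPM to 15.7, 13.0, 103 and 105 CPM (adjusted p = 0.0459, edgeR). Egln3, a prolyl hydroxylase that HIF itself induces, was at 12.1, 7.40, 10.4 and 7.80 CPM against 12.7, 2.03, 4.87 and 5.03 CPM (log2 0.81 ± 0.30, adjusted p = 0.111, edgeR). Egln3 rose 2.01-fold in macrophage-low barcodes (adjusted p = 0.0227, edgeR).

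Of 12 hypoxia targets 2 were called higher in all barcodes and 8 in macrophage-low barcodes. Bnip3 was at 109, 58.2, 99.5 and 54.6 CPM in Pdcd1 cells and 102, 8.86, 39.1 and 16.6 CPM in the others, with a log2 fold change of 1.41 ± 0.41 that missed the threshold (adjusted p = 0.0633, edgeR). Among macrophage-low barcodes it was at 104, 57.4, 68.2 and 46.5 CPM against 50.7, 6.46, 11.1 and 13.0 CPM, and rose 4.18-fold (adjusted p = 0.00595, edgeR). Cells without Pdcd1 had clearly less Bnip3 in the buffer and 1.25 mg/kg libraries after the filter. Macrophage markers in that class summed to 3479, 261, 2279 and 236 CPM in all barcodes and to 114, 22.7, 45.1 and 17.3 CPM after the filter, and in Pdcd1 cells to 433, 306, 3728 and 1087 CPM and then 73.0, 21.2, 42.9 and 17.6 CPM. The 7 dendritic cell markers in cells without Pdcd1 of the buffer library remained at 1230 CPM after the filter, and their part in the result was not tested.

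Ndrg1, a stress-response gene induced by hypoxia, followed Bnip3. It was at 53.9, 29.9, 56.9 and 43.1 CPM against 49.3, 6.38, 20.6 and 8.57 CPM (adjusted p = 0.0503, edgeR), and rose 4.07-fold in macrophage-low barcodes (adjusted p = 0.00698). Mxi1 was at 18.9, 16.5, 73.7 and 64.1 CPM against 17.1, 3.28, 25.9 and 27.0 CPM and rose 2.38-fold in all barcodes (adjusted p = 0.0499, edgeR). Ddit4 (REDD1, an inhibitor of mTORC1 signalling) was at 128, 125, 151 and 147 CPM against 124, 63.6, 62.6 and 60.0 CPM, nearly equal in the buffer library and higher in the rest, with a log2 value of 0.84 that missed the threshold (adjusted p = 0.0542, edgeR). Ero1l, an oxidase of protein folding, rose 1.65-fold (adjusted p = 0.0398, edgeR). P4ha1 (collagen prolyl hydroxylase) and Ankrd37, with log2 values of 0.37 and 0.58, passed only in macrophage-low barcodes, at 0.50 and 0.72. Bnip3l, a relative of Bnip3, had a fold change of 1.10 (log2 0.14, adjusted p = 0.272, edgeR), and Higd1a, a mitochondrial stress protein, of 1.17, and neither passed. Plin2 and Vegfa, the members with the highest levels in macrophage barcodes relative to CD8 T barcodes in each library, had log2 values of 0.04 ± 0.50 and 0.40 ± 0.64, with wide errors, and passed in neither set of barcodes.

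**Figure D2:**
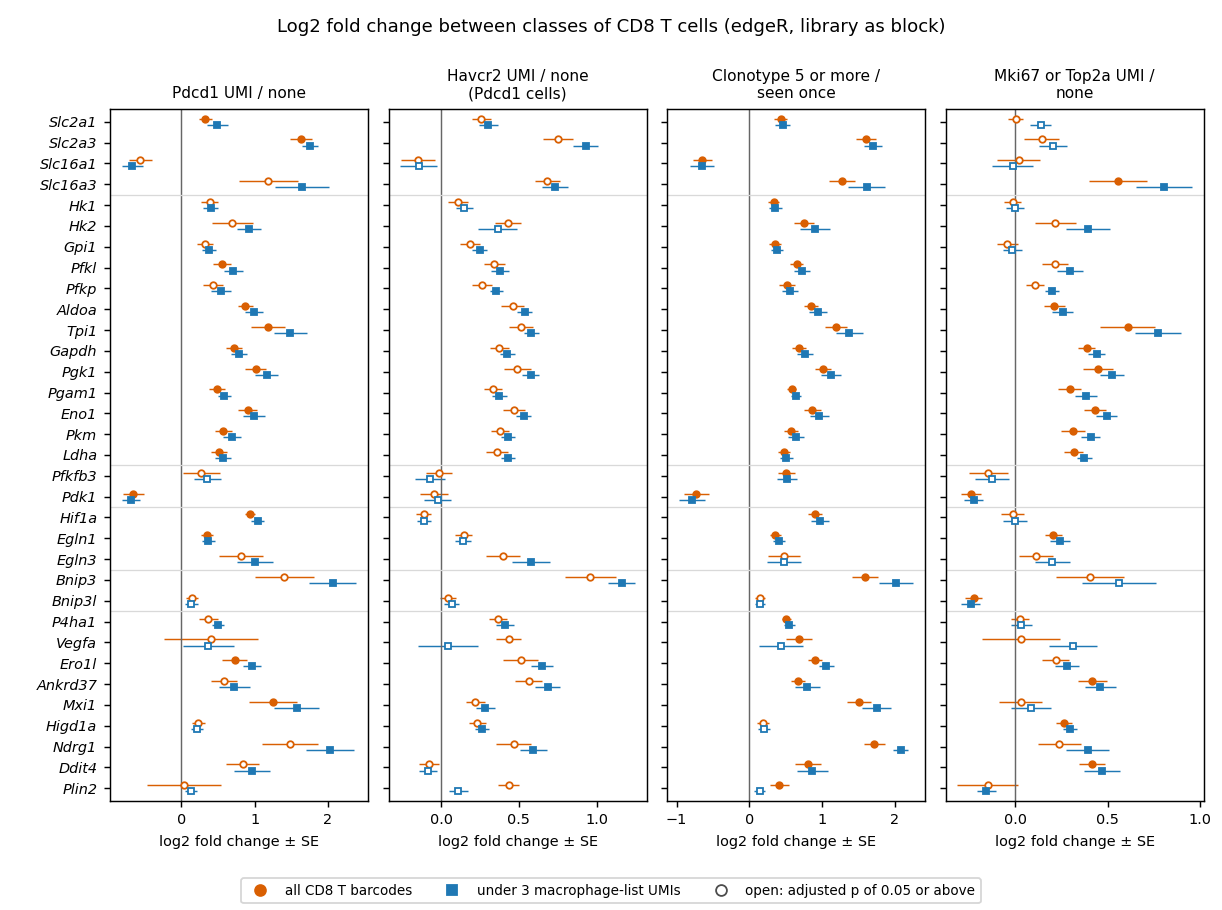
Log2 fold change with its standard error (edgeR) for each of the 33 measured members in the 4 class comparisons, 1 panel each (Pdcd1, Havcr2 within Pdcd1 cells, clone size, and Mki67 or Top2a), for all CD8 T barcodes (circles) and macrophage-low barcodes (squares); open symbols did not pass the test. In all barcodes the Pdcd1 panel runs from Pdk1 at -0.66 to Slc2a3 at 1.63.

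Cells with a Pdcd1 UMI also had more UMIs, with medians of 10300, 13173, 10492.5 and 7190.5 against 6027.5, 9382, 5135 and 6068. When each cell was thinned to 3000 UMIs before it was assigned to a class, 3 members remained called higher (Slc2a3, Hif1a and Aldoa) and 0 lower. Of all 8872 genes, 293 were then called higher and 403 lower. In thinned cells the 13 enzymes gave a mean of 21.5, 13.4, 16.5 and 17.2 UMIs of 3000 in cells at 0 Pdcd1 UMIs and 31.7, 26.2, 26.8 and 22.1 in cells with 3 or more. Slc2a3 went from 38.1, 11.0, 17.2 and 23.2 to 77.1, 66.1, 48.5 and 53.5 CPM, and Pdk1 from 26.3, 39.3, 23.6 and 20.5 to 21.3, 13.0, 14.7 and 12.1 CPM. Hypoxia targets went from 2.62, 1.35, 2.49 and 2.02 UMIs at 0 to 2.70, 2.34, 3.19 and 2.80 at 3 or more Pdcd1 UMIs. In macrophage-low barcodes they went from 2.09, 1.31, 1.70 and 1.92 to 2.58, 2.33, 2.82 and 2.75. In the 10 mg/kg library enzymes went from 13.4 to 24.5, 25.6 and 26.2 over 0, 1, 2 and 3 or more Pdcd1 UMIs, most of the difference lying at the first step.

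**Figure D3:**
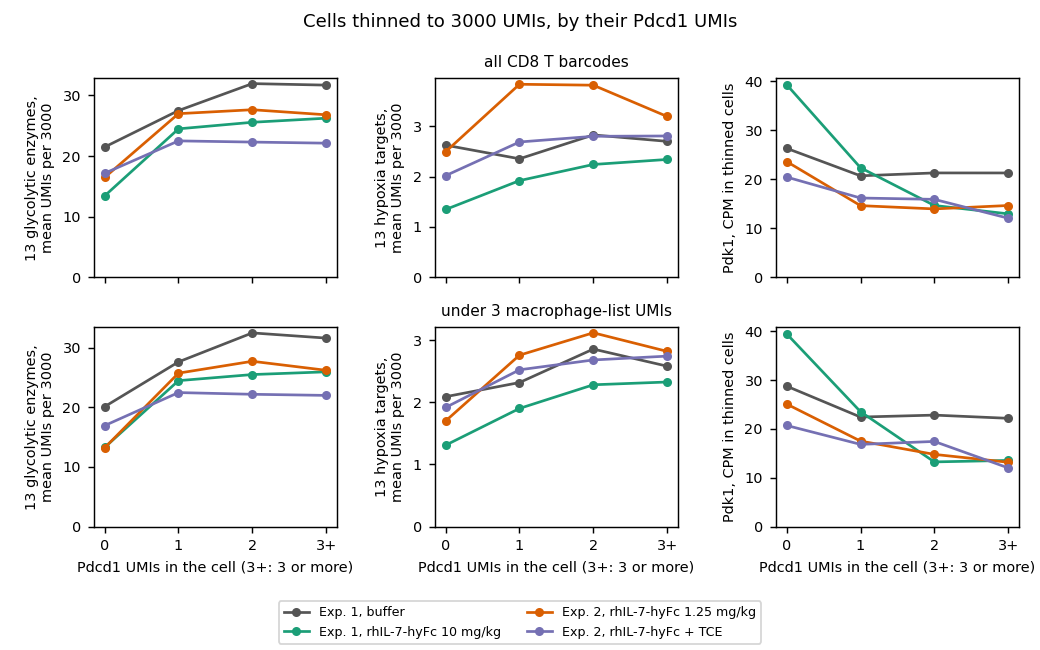
Mean UMIs of the 13 glycolytic enzymes (left) and the 13 hypoxia targets (middle) per 3000 UMIs, and CPM of Pdk1 (right), by the number of Pdcd1 UMIs in cells thinned to 3000 UMIs, for all CD8 T barcodes (top) and macrophage-low barcodes (bottom), with 1 line for each library. In the top row the 10 mg/kg library goes from 13.4 to 26.2 enzyme UMIs and from 39.3 to 13.0 CPM of Pdk1.

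Within Pdcd1 cells, those with a Havcr2 UMI (1478, 416, 3115 and 3025 cells) were compared with those without, which separates the state in which both receptors are carried. In all barcodes no member passed edgeR's test, against 0.0789% called higher and 0.0225% lower over all genes. DESeq2 called 21 members higher, among 350 genes of 8872 that it called higher in all. Among macrophage-low barcodes 22 members rose and 0 fell, against 9.43% and 9.68% over all genes: 11 of 13 enzymes and 8 of 12 hypoxia targets. Without the 1.25 mg/kg library 12 members were called higher in all barcodes, and the share over all genes is not given for that fit. Macrophage markers summed to 420, 377, 4190 and 1478 CPM in the Havcr2 cells and 458, 222, 3046 and 648 CPM in the others. Havcr2 cells had medians of 12655.5, 17386.5, 13843 and 8912 UMIs against 7756, 10606, 7918 and 6230. When each cell was thinned to 3000 UMIs before it was assigned to a class, 18 members were called higher, among 246 of 8872 genes. The part of macrophage RNA and of depth in the result was not tested further.

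Bnip3 separated these cells most. It was at 137, 80.5, 110 and 70.1 CPM with Havcr2 and 54.4, 31.7, 84.8 and 37.1 CPM without in all barcodes, and at 131, 81.2, 93.7 and 62.6 CPM against 49.1, 31.3, 48.7 and 31.9 CPM in macrophage-low barcodes, where it rose 2.24-fold (log2 1.16 ± 0.09 SE, adjusted p = 0.000283, edgeR). The Havcr2 cells had more Bnip3 in each library in both sets of barcodes. Slc2a3 rose 1.91-fold in macrophage-low barcodes (adjusted p = 0.000510, edgeR), from 51.4, 27.7, 35.9 and 38.4 CPM to 97.8, 64.1, 74.4 and 60.2 CPM. Slc16a3, Ankrd37, Ero1l, Tpi1 and Pgk1 rose by log2 fold changes of 0.73, 0.68, 0.65, 0.58 and 0.58. Hif1a, the oxygen-regulated subunit of the factor, was at 244, 190, 254 and 302 CPM with Havcr2 and 262, 216, 264 and 327 CPM without, slightly lower in all 4 libraries, with log2 fold changes of -0.11 in both sets of barcodes that did not pass (adjusted p = 0.199 and 0.112, edgeR). Ddit4, Pdk1, Pfkfb3, Slc16a1 and Bnip3l, at -0.08, -0.05, -0.01, -0.15 and 0.04, did not pass in either set.

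Clone size gave the most calls among the comparisons in all barcodes. Cells whose T cell receptor clonotype was carried by 5 or more cells of the library (1527, 368, 2635 and 3536 cells) were set against cells whose clonotype was seen once (1108, 4788, 4019 and 4149 cells). Of 33 members 28 rose in the large clones and 2 fell, against 20.6% higher and 21.3% lower over all genes. All 13 enzymes (median log2 0.65) and 9 of 12 hypoxia targets (median 0.67) rose, and Bnip3l, Higd1a and Egln3 did not pass. The macrophage-low barcodes gave 26 that rose and 2 that fell, Plin2 and Vegfa being the ones lost, against 21.5% and 21.8% over all genes. Macrophage markers summed to 328, 395, 2639 and 486 CPM in the large clones and 427, 169, 2270 and 247 CPM in clonotypes seen once. Median UMIs were 11493, 13298.5, 7439 and 6392 against 7365, 9460.5, 5283 and 6348, and the part of either in the result was not tested. Without the 1.25 mg/kg library 17 members rose and 0 fell, and the shares over all genes are not given for that fit.

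Ndrg1 had the largest fold change with clone size. It was at 55.8, 31.2, 67.8 and 51.6 CPM in clonotypes of 5 or more cells and 19.8, 6.91, 25.2 and 11.7 CPM in those seen once, higher in every library, and rose 3.28-fold (log2 1.71 ± 0.14 SE, adjusted p = 0.00123, edgeR). Slc2a3 rose 3.03-fold, from 35.0, 13.3, 15.1 and 19.3 CPM to 84.8, 61.2, 49.6 and 56.6 CPM (adjusted p = 0.00120, edgeR). Clonotypes of 2 to 4 cells were already close to the large ones, at 76.5, 44.5, 40.1 and 46.4 CPM. Bnip3 rose 3.00-fold and was at 116, 67.3, 111 and 61.9 CPM in large clones against 49.9, 12.5, 41.2 and 19.6 CPM in clonotypes seen once. Mxi1 rose 2.83-fold, Slc16a3 2.41-fold, Tpi1 2.29-fold and Pgk1 2.02-fold. Hif1a rose 1.86-fold, from 158, 97.1, 138 and 186 CPM to 252, 225, 303 and 350 CPM (adjusted p = 0.00193, edgeR). The buffer library lay on the same side as the others for most members: 30 of 33 members were higher in the large clones in all 4 libraries, Pdk1 and Slc16a1 were lower in all 4, and Egln3 was mixed. Sides were counted for the members only, so no share over all genes stands beside this. Pdk1 was at 25.1, 16.5, 14.9 and 13.6 CPM in large clones and 30.5, 39.2, 22.8 and 19.8 CPM in clonotypes seen once, and fell by 0.73 on the log2 scale (adjusted p = 0.0189, edgeR).

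Cells with an Mki67 or Top2a UMI, genes expressed in dividing cells, were compared with the rest to see how far the program follows division. In the cycling cells 13 members rose and 2 fell, against 20.4% and 24.2% over all genes. The cycling cells had medians of 12492, 12725, 13652 and 10847.5 UMIs against 7112, 9208, 5840 and 5998. Their macrophage markers summed to 672, 235, 3671 and 1141 CPM, against 1637, 290, 3094 and 634 CPM, and the part of either in the result was not tested. Without the library as a block no member passed edgeR's test. The enzymes accounted for 8 of the 13, with a median log2 fold change of 0.29. Gapdh was at 1276, 883, 959 and 1037 CPM in cycling cells and 973, 557, 746 and 824 CPM in the others, and rose 1.31-fold (adjusted p = 0.00190, edgeR). Tpi1, Pgk1 and Eno1 rose by 0.61, 0.45 and 0.43 on the log2 scale, Ddit4 by 0.41 and Ankrd37 by 0.42. Slc2a3 (0.14), Slc2a1 (0.00) and Hif1a (-0.01) did not pass. Pdk1 fell by 0.24 and Bnip3l by 0.23, the latter from 146, 124, 151 and 186 CPM to 140, 109, 132 and 155 CPM. The filtered barcodes gave 18 that rose and 3 that fell, against 25.1% and 26.7% over all genes, Plin2 (-0.16) being the third that fell. A test of whether any of the 4 class differences itself differed between the experiments called 0 members, with 2 libraries in each experiment. With that number of libraries, 0 calls do not show that the differences were alike. For Havcr2 in all barcodes, the median log2 difference of experiment 2 from experiment 1 was -0.19 over the members and 0.01 over all genes.

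Beyond the 34 members, 79 further genes of glycolysis, its side branches and the hypoxia response were listed, of which 54 were tested. In Pdcd1 cells 17 rose and 9 fell, against 10.7% and 12.5% over all genes, with a median log2 fold change of 0.04, against 0.57 for the members and -0.01 for all genes. Plod2 (a collagen lysyl hydroxylase) rose 8.45-fold (log2 3.08 ± 0.71, adjusted p = 0.0386, edgeR), Epas1 (HIF-2α) 5.55-fold, Hilpda (a lipid droplet protein induced by HIF) 4.03-fold and Gpd2 (the mitochondrial glycerol-3-phosphate dehydrogenase) 3.78-fold. Gpd1l, a glycerol-3-phosphate dehydrogenase-like gene, fell by 0.74 on the log2 scale (adjusted p = 0.0181, edgeR). Zfp395, Kdm6b (a histone H3K27 demethylase) and Cited2 (a protein that competes with HIF for its coactivator) fell by 0.71, 0.69 and 0.62. All 8 kept their call in macrophage-low barcodes, where 20 of the 54 rose and 12 fell, against 18.5% and 20.8% over all genes.

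The effect of rhIL-7-hyFc at 10 mg/kg was read in experiment 1. With 1 library per group no test was possible, so ratios are given with 95% exact intervals that cover counting error only, and called means 1.5-fold or more. Of 33 members 26 were lower by 1.5-fold in the treated library and 0 were higher, against 20.5% lower and 5.79% higher over all genes. The median log2 ratio was -0.95, against -0.21 for all genes. Scaling by TMM factors moved the all-gene median to 0.00 and gave 20 members lower and 2 higher (Pdk1 and Slc16a1), with 13.5% and 10.2% of all genes. In sums over cells like these, fewer cells in a state and less RNA per cell cannot be told apart, and the share of Pdcd1 cells was 67.1% in the buffer and 17.4% in the treated library.

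By the median over members, hypoxia targets were lower by more than the enzymes, with 10 of 12 called and a median of -1.37, against 11 of 13 and -0.84. The summed levels did not show this gap. Summed enzymes went from 10165 to 5675 CPM and summed hypoxia targets from 941 to 519 CPM. In macrophage-low barcodes the enzymes went from 10151 to 5592 CPM and the hypoxia targets from 856 to 502 CPM. With each clonotype counted once, 6 enzymes were called lower, against 17.7% of all genes. Bnip3 was at 107 CPM in the buffer and 20.7 CPM in the treated library, 5.18-fold lower (interval 4.86 to 5.51), and Ndrg1 at 52.9 and 12.1 CPM, 4.39-fold lower. Vegfa went from 7.49 to 1.70 CPM, 4.40-fold lower (3.51 to 5.55), on few UMIs. Egln3 was 3.68-fold lower (3.12 to 4.35), and Mxi1 2.85-fold lower. Of the transporters, Slc16a3 was 4.27-fold lower, Slc2a3 3.43-fold lower (3.20 to 3.67) and Slc2a1 1.68-fold lower. Enzyme ratios ran from Tpi1, at 689 and 219 CPM and 3.14-fold lower, over Pgk1 (2.36-fold), Hk2 (2.15-fold), Gapdh (1.71-fold) and Ldha (1.60-fold), to Gpi1 at 761 and 640 CPM. Hif1a was 1.94-fold lower and Ddit4 1.62-fold lower. Slc16a1 (10.6 to 14.6 CPM, 1.38-fold higher, interval 1.23 to 1.55) and Pdk1 (26.7 to 35.7 CPM, 1.34-fold higher, interval 1.24 to 1.44) were the only members higher after treatment. In macrophage-low barcodes 26 members were again lower and 0 higher, against 19.8% and 6.49% of all genes, and Bnip3 was 5.06-fold lower.

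Fewer members were called within Pdcd1 cells. Among these (2669 and 979), 6 members were called lower: Bnip3, Ndrg1, Slc2a3, Ankrd37, Egln3 and Slc16a3, against 4.22% of all genes. The median there was -0.31, no enzyme was called (median -0.27), and 4 of 12 hypoxia targets were. Bnip3 was at 109 and 58.2 CPM, Slc2a3 at 80.3 and 46.1 CPM, and Gapdh at 1225 and 1108 CPM. Among cells without Pdcd1 (1306 and 4643), 23 members were lower, against 25.5% of all genes, with a median of -0.90 and Tpi1 at 494 and 122 CPM. Its macrophage-low barcodes gave 21 lower, against 23.3%, and a median of -0.79. In this class the macrophage markers summed to 3479 and 261 CPM and the dendritic cell markers to 1832 and 144 CPM in all barcodes, and to 114 and 22.7 CPM and 1230 and 12.7 CPM after the filter, and their part in the result was not tested. By clone size, clonotypes of 5 or more cells gave 6 lower (median -0.32, against 3.44% of all genes), among them Pdk1, at 25.1 and 16.5 CPM, and clonotypes seen once 16 (median -0.57, against 14.2%). Cycling cells gave 23 lower (median -0.69, against 13.3%). Whether these gaps differ between classes was not tested.

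**Figure D4:**
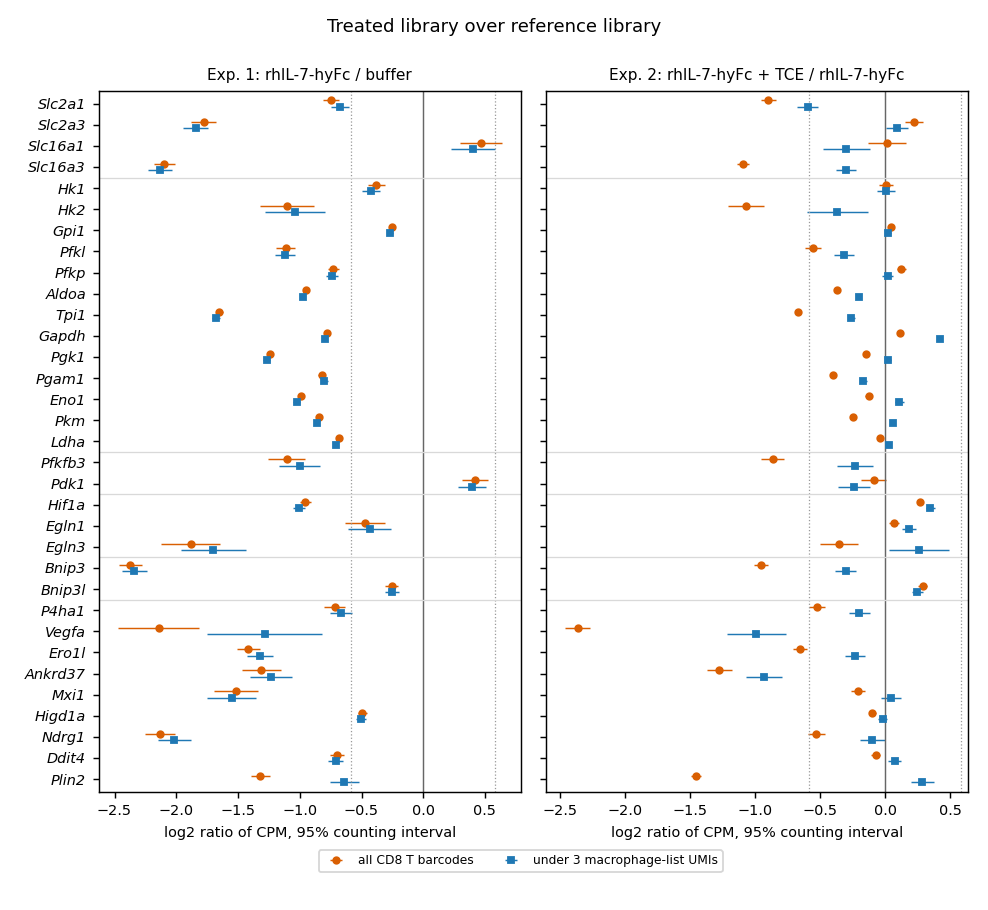
Log2 ratio of CPM for each of the 33 measured members with its 95% counting interval, rhIL-7-hyFc over buffer (left, experiment 1) and the combination over rhIL-7-hyFc (right, experiment 2), for all CD8 T barcodes (circles) and macrophage-low barcodes (squares), with dotted lines at 1.5-fold. The median is -0.95 on the left in all barcodes, and on the right it is -0.25 in all barcodes and -0.02 in macrophage-low ones.

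Adding TCE to rhIL-7-hyFc at 1.25 mg/kg was read in experiment 2, and the 2 sets of barcodes gave different counts. In all barcodes 10 of 33 members were lower by 1.5-fold in the combination library and 0 higher, against 7.71% and 2.25% of all genes, with a median of -0.25 against 0.09 for all genes. Enzymes were called in 2 of 13 (Hk2 and Tpi1, median -0.15) and hypoxia targets in 5 of 12 (median -0.53). Vegfa and Plin2, the members with the highest level in macrophage barcodes relative to CD8 T barcodes, had the lowest ratios. Vegfa went from 58.6 to 11.4 CPM, 5.16-fold lower (4.83 to 5.51), Plin2 from 213 to 77.6 CPM, 2.75-fold lower (2.68 to 2.82), and Ankrd37 from 30.5 to 12.6 CPM, 2.42-fold lower. Slc16a3 was 2.14-fold, Hk2 2.10-fold, Bnip3 1.94-fold and Slc2a1 1.87-fold lower. Macrophage markers went from 3356 to 836 CPM between the same libraries, and from 43.8 to 17.5 CPM in macrophage-low barcodes.

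In macrophage-low barcodes 3 members were called lower and 0 higher, against 4.36% and 1.40% of all genes: Vegfa (7.69 to 3.86 CPM), Ankrd37 (19.7 to 10.3 CPM) and Slc2a1 (54.2 to 35.8 CPM, 1.51-fold lower, interval 1.43 to 1.60). The median was -0.02, with 0.02 for the enzymes and -0.06 for the hypoxia targets. Plin2 turned from lower to higher, at 36.3 and 44.2 CPM, and Bnip3 was at 43.5 and 35.1 CPM. Gapdh was at 654 and 873 CPM, Hif1a at 210 and 268 CPM, and Bnip3l at 148 and 176 CPM. In all barcodes the highest ratios were likewise small, at 1.22 for Bnip3l (1.19 to 1.25), 1.20 for Hif1a (1.18 to 1.22) and 1.17 for Slc2a3 (1.11 to 1.22). Pdk1, at 17.6 and 16.6 CPM, and Ddit4, at 128 and 122 CPM, were nearly level.

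Split by state, the enzyme medians of experiment 2 had opposite signs in both sets of barcodes. For the hypoxia targets this held in macrophage-low barcodes only. Among macrophage-low barcodes, Pdcd1 cells (3343 and 6315) had 4 members lower (Ankrd37, Vegfa, Slc2a1 and Slc16a3; median -0.26, against 3.79% of all genes), and cells without Pdcd1 (3739 and 3821) had 5 higher (Gapdh, Pgk1, Eno1, Egln3 and Mxi1) and 1 lower (Vegfa), with a median of 0.22, against 6.75% and 5.55% of all genes. In the cells without Pdcd1, Gapdh was at 388 and 687 CPM, Pgk1 at 234 and 373 CPM, and Eno1 at 120 and 191 CPM. In the Pdcd1 cells Pgk1 was at 752 and 617 CPM. After the filter, dendritic cell markers still summed to 48.3 and 5.85 CPM and neutrophil markers to 24.6 and 0.271 CPM in cells without Pdcd1. In Pdcd1 cells these sums were 355 and 149 CPM and 26.7 and 2.54 CPM, and their part in either result was not tested. The same split of all barcodes gave 11 lower with Pdcd1 and 9 lower without, against 7.62% and 8.87% of all genes. There, summed hypoxia targets were at 1298 and 954 CPM with Pdcd1 and at 778 and 636 CPM without, lower with TCE in both classes. Clonotypes seen once gave 6 higher and 0 lower (median 0.24, against 5.99% and 5.18%), with Hif1a at 119 and 183 CPM, whereas clonotypes of 5 or more cells gave 4 lower (median -0.20, against 4.14%). The enzyme total was closer between Pdcd1 states in the combination library, at 7805 and 5654 CPM, than in the rhIL-7-hyFc library, at 9256 and 4228 CPM. The differences between classes were not tested, since each treatment had 1 library.

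Within single cells the enzymes and the hypoxia targets were positively correlated. Each cell was thinned to 3000 UMIs, which left out 692, 187, 575 and 424 shallower cells. Across the 3283, 5435, 10313 and 10509 cells, Pearson's r between the summed enzymes and the summed hypoxia targets was 0.50, 0.35, 0.51 and 0.38, and 0.49, 0.35, 0.50 and 0.38 without Gapdh. Cells of 1 library share their source and are not replicates, so these are descriptions. Cells in the lowest of 4 nearly equal bins by enzyme UMIs had 1.67, 1.22, 1.64 and 1.87 hypoxia-target UMIs on average, and those in the highest bin 4.52, 2.04, 5.09 and 3.47. Pdcd1 was detected in 28.4%, 3.61%, 17.6% and 38.7% of the lowest bin and 70.4%, 33.6%, 71.9% and 69.5% of the highest. In bin 3 Pdcd1 was detected in 69.4%, 9.94%, 61.9% and 62.0%, and the hypoxia-target means were 2.31, 1.30, 3.18 and 2.37.

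**Figure D5:**
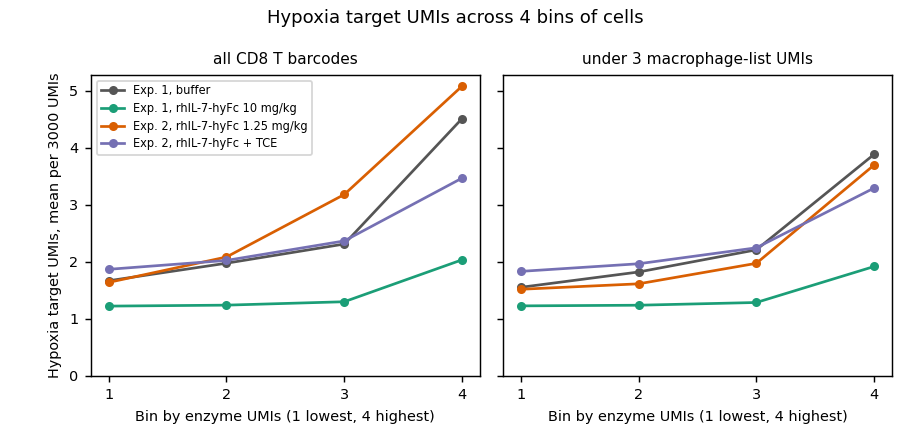
Mean hypoxia-target UMIs per 3000 UMIs in 4 bins of cells by their glycolytic enzyme UMIs, from lowest (1) to highest (4), for all CD8 T barcodes (left) and macrophage-low barcodes (right), with 1 line for each library. In the buffer library of the left panel the mean goes from 1.67 in bin 1 to 4.52 in bin 4.

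Cells with a Bnip3 UMI after thinning (503, 177, 1489 and 962 cells) more often held other members. Of these, 91.5%, 87.6%, 96.1% and 92.6% also had a UMI of another hypoxia target, against 83.3%, 72.1%, 85.0% and 85.8% of cells without Bnip3. Their median enzyme UMIs were 44, 30, 32 and 30, against 19, 12, 16 and 16. Pdcd1 was found in 63.0%, 46.9%, 62.8% and 71.2% of them, against 53.9%, 11.7%, 44.9% and 53.3%. No background for such shares was measured in a cell type that lacks these genes. In macrophage-low cells r was 0.51, 0.33, 0.53 and 0.38, and the highest enzyme bin had 3.89, 1.92, 3.70 and 3.30 hypoxia-target UMIs.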

How the data were processed

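Gene expression was measured in 4 libraries and paired T cell receptors in 4 more, 1 of each per group. The authors' deposited matrices give raw counts of UMIs for every gene in every barcode. Their headers name Cell Ranger 4.0.0 in experiment 1 and 6.1.2 in experiment 2, and GRCm38 is the build in the submitters' processing notes. Clonotypes were those of the deposited receptor tables. Barcodes with at least 500 genes and under 10% mitochondrial UMIs were kept and gated on Cd8 and Cd3 UMIs. No doublet caller was run, and barcodes with 3 or more macrophage UMIs were removed in a second set. Class sums per library were tested with edgeR 4.0.16 (TMM, quasi-likelihood, library as block, residual degrees of freedom 3) at an adjusted p of 0.05, for genes with a mean of at least 5 CPM. The libraries are the replicates of that test, so its p-values measure the spread between 4 differently treated libraries, and the groups share no replicate in the labels. DESeq2 1.42.0 and other filters, gates and scalings were the alternatives. Treatments had 1 library each and were described by ratios with exact 95% counting intervals. UMI totals set their precision. The scripts were tested on simulated data.

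Members named with values in every library are, in each role group, the 3 with the largest fold change between Pdcd1 states, the 3 with the largest ratio in each direction in each treatment comparison, and Slc2a1, Hk2, Gapdh, Ldha, Pgk1, Hif1a, Bnip3, Egln3 and Ddit4. Of the other pathway genes, up to 4 called in each direction are named. The members and lists were chosen with earlier results of these data known.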

Additional observations from a re-analysis of the deposited data

Results flagged for a closer look

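In experiment 2 the log2 ratio of the combination over rhIL-7-hyFc alone had opposite signs in classes of the same libraries. For the 13 glycolytic enzymes in all CD8 T barcodes the median was -0.21 in Pdcd1 cells and 0.19 in cells without Pdcd1, and -0.25 in clonotypes of 5 or more cells and 0.16 in clonotypes seen once. With under 3 macrophage UMIs the enzyme medians were -0.27 and 0.33 by Pdcd1 state and -0.25 and 0.30 by clone size. For the 12 measured hypoxia targets they were -0.26 and 0.21 by Pdcd1 state and -0.18 and 0.21 by clone size. In all CD8 T barcodes the hypoxia target medians did not have opposite signs. Each treatment had 1 library, so these differences were not tested.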

How the results depend on the processing

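Each class comparison was repeated with other tools, scalings, filters and barcodes, and each treatment comparison with other scalings, filters, weights and gates. By Pdcd1 state, 15 members higher and 1 lower (950 and 1111 genes in all) became 24 and 2 (1435 and 1616) with DESeq2. They became 26 and 2 (1644 and 1848) with under 3 macrophage UMIs and 6 and 0 (293 and 245) with no replicate block (library). States taken from 3000 UMIs gave 3 and 0 (293 and 403). The 1 lower became 0 with no filter on low counts. Leaving out 1 library gave 2 to 24 higher and 0 to 2 lower, with 24 without the buffer, 5 without the 10 mg/kg, 2 without the 1.25 mg/kg and 9 without the combination library. For fits without 1 library, here and below, counts over all genes are not given. By Havcr2, 0 members higher (7 genes in all) became 21 (350) with DESeq2 and 22 (837) with under 3 macrophage UMIs. They became 18 (246) with states from 3000 UMIs and 2 (39) without cycling cells. With no filter on low counts 19 were higher, among 409 of 19167 genes. Leaving out 1 library gave 0 to 12 higher and 0 lower. By clone size, 28 higher and 2 lower (1832 and 1890 genes in all) became 12 and 0 (603 and 542) with no replicate block. Without 1 library there were 17 to 28 higher and 0 to 2 lower, 17 and 0 being without the 1.25 mg/kg library. By cycling state, 13 higher and 2 lower became 0 and 0 with no replicate block, where 473 genes in all were called higher, and 12 to 13 higher and 0 to 2 lower without 1 library. In experiment 1, 0 members higher (5.79% of all genes) became 2 with TMM factors (10.2%) and 1 without cycling cells (4.83%). Also in experiment 1, 11 enzymes lower (20.5% of all genes) became 6 with each clonotype counted once (17.7%). In experiment 2, 10 members lower (7.71% of all genes) became 6 with a mean of at least 20 CPM (6.35%) and 3 with under 3 macrophage UMIs (4.36%). With the mean of each cell or each clonotype once, 6.76% and 6.79% of all genes were lower in experiment 2. There, 2 enzymes lower became 1 with at least 20 CPM, with the mean of each cell or with each clonotype once, and 0 with under 3 macrophage UMIs, and 5 hypoxia targets lower became 3 and 2 with at least 20 CPM and under 3 macrophage UMIs. Plin2 reversed in experiment 2, to a log2 ratio of 0.29 with under 3 macrophage UMIs. Thinned to 2000 UMIs, 81.5%, 74.4%, 92.7% and 85.3% of Bnip3 cells held another hypoxia target, and with under 3 macrophage UMIs 93.5% did in the 1.25 mg/kg library. The causes were not tested, beyond fewer samples or members entering where a library or low genes were left out. Low members such as Hk2, Egln3 and Ak4 are limited by their UMI counts, and every treatment result by its single library.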
